A study of Mus musculus with 4 samples.

Results

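The genes described here are 9 myelin genes, taken by their names from the deposited gene table: Mbp, Mobp, Mog, Mag, Mal, Opalin, Cnp, Cldn11 and Aspa. They are 9 of the 56748 genes in that table. All 9 were detected, and all 9 passed the filter on low counts in both cell classes tested, oligodendrocyte-like and neuronal nuclei. Myelin is the lipid-rich membrane that oligodendrocytes wrap around axons in the central nervous system, where it insulates the axon and speeds conduction. Mature oligodendrocytes transcribe the genes of its structural proteins at very high levels, while their precursors and neurons are not known as sources of compact myelin. Mbp mRNA is carried out of the nucleus to the processes of the cell, so a measurement in nuclei reads transcription and nuclear RNA rather than the RNA stored at the sheath.

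Hippocampal nuclei of male mice were profiled by split-pool single-nucleus RNA sequencing in 8 conditions, each a single pool of 3 mice. In the diet experiment, purchased C57BL/6 mice aged 5 to 7 weeks received vehicle chow (AIN-76A) or chow with 1200 mg/kg PLX5622, a CSF1R antagonist that depletes microglia, from 7 days before repeated social defeat (RSD). In the genotype experiment, mice bred in-house were either IL-1R1+/+ (Cre-negative) or nIL-1R1-/-, in which Cre driven by Vglut2 deletes the interleukin-1 receptor in glutamatergic neurons, so oligodendrocytes keep the receptor gene. Mice of each diet and genotype were left undisturbed or exposed to RSD for 2 h on each of 6 nights, and nuclei were taken 14 h after the last defeat. Values for all 8 pools are given with the diet experiment first, as Control-Vehicle and Control-PLX5622, then Stress-Vehicle with Stress-PLX5622 after it, and then the genotype experiment, as Con-IL-1R1+/+ and Con-nIL-1R1-/- for the controls followed by Stress-IL-1R1+/+ and then Stress-nIL-1R1-/-. The isolation included beads that remove myelin debris, and any effect of this step on the recovery of oligodendrocyte nuclei was not tested. Because a condition is 1 pool, RSD was tested over 4 control-RSD pairs, and p-values measure the spread between pools.

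The 8 pools held 57350 nuclei, of which 56834 passed the limit of 20% mitochondrial counts. The median count of unique molecular identifiers (UMIs, individual RNA molecules) per nucleus ranged from 598 in Control-PLX5622 to 5012, so Control-PLX5622 was the shallowest pool. Clusters were made without the 9 myelin genes. A single cluster of 2010 nuclei was called oligodendrocyte-like from 12 other markers. All 12 were detected in it, and their summed level was 14204 to 16253 CPM (UMIs of a gene scaled to the same total in each pool and class) in 7 pools and 20228 CPM in Control-PLX5622. Neuronal clusters held 46276 nuclei. Neuron markers summed to 5631 to 8629 CPM in the oligodendrocyte-like nuclei, against 29375 to 36634 CPM in neuronal nuclei, and the part of this neuronal RNA in the oligodendrocyte results was not tested. An unnamed cluster of 1474 nuclei carried neuronal and oligodendrocyte genes together and was left out of both classes. No nucleus of the PLX5622 pools fell in the microglia-like cluster. Il1r1 in neuronal nuclei was 5.32 and 3.5 CPM in the nIL-1R1-/- pools and 15.5 and 8.31 CPM in the IL-1R1+/+ pools, with 14.9 to 24.1 CPM in the diet pools.

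The 9 genes lie on 8 chromosomes of the mm39 (GRCm39) build. Mbp, for myelin basic protein, which holds the cytoplasmic faces of the membrane together, spans chr18:82493207-82603763 on the plus strand. Mobp, for another basic protein of the compact sheath, spans chr9:119973770-120011273 on the plus strand. Mog, for an outer-surface glycoprotein of the immunoglobulin superfamily, spans chr17:37321521-37334350 on the minus strand. Mag, for the glycoprotein that faces the axon at the innermost wrap, spans chr7:30598464-30614474 on the minus strand. Mal, for a lipid-raft protein of membrane sorting, spans chr2:127475142-127498615 on the minus strand. Opalin, for a transmembrane protein of mature oligodendrocytes, spans chr19:41045254-41065553 on the minus strand. Cnp, for the cyclic nucleotide phosphodiesterase of the non-compact channels, spans chr11:100465730-100482936 on the plus strand. Cldn11, for the claudin of the myelin tight junctions, spans chr3:31203900-31218495 on the plus strand. Aspa, for aspartoacylase, which frees acetate from N-acetylaspartate for lipid synthesis, spans chr11:73187042-73220422 on the minus strand. Nuclear RNA holds unspliced transcripts, so reads can come from introns as well as exons of these spans.

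Genes on the other strand overlap Cnp (Dnajc7, over 9313 bases), Aspa (Trpv3, 4152 bases, and Spata22, 3020 bases), Mog (Zfp57, 4672 bases), Opalin (Dntt, 2711 bases), Mag (Gm44662, 6209 bases) and Mobp (Gm5922, 11238 bases). The pseudogene Rpl21-ps8 overlaps Mbp over 483 bases, also on the other strand. Gm38642 overlaps Mobp over 3170 bases on the same strand, which counting by strand would not separate. Whether the counting used strand is not given in the sources used here.

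Promoters are shown for 5 genes, Mobp, Mog, Opalin, Cnp and Aspa, whose windows hold motifs searched, while that of Mbp, which also holds some, is not printed. The motifs were ACAAAG, the core bound by SOX factors such as Sox10, and CTGGCAC or CTGGTAC, the core bound by Myrf, both regulators of the myelin programme, together with the TATA box TATAAA. Each run is 300 bases, from 250 before to 50 after the canonical start in GENCODE vM39 on GRCm39, printed 5' to 3' on the strand of the gene, with every match on either strand in capitals. The windows are chr9:119978493-119978792 (plus) for Mobp, chr17:37334301-37334600 (minus) for Mog, chr19:41065503-41065802 (minus) for Opalin, chr11:100465480-100465779 (plus) for Cnp and chr11:73215433-73215732 (minus) for Aspa.
Mobp: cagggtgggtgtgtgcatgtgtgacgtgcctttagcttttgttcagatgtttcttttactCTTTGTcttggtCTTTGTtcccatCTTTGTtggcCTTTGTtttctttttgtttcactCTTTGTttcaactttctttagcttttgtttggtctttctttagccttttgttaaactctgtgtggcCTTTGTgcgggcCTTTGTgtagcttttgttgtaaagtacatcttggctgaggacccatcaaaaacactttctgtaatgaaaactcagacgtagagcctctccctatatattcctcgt
Mog: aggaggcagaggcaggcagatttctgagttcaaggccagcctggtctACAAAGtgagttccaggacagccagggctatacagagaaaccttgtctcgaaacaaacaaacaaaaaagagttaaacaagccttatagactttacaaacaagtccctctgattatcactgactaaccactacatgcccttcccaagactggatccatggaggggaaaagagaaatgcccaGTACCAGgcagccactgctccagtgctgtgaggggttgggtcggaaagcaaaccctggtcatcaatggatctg
Opalin: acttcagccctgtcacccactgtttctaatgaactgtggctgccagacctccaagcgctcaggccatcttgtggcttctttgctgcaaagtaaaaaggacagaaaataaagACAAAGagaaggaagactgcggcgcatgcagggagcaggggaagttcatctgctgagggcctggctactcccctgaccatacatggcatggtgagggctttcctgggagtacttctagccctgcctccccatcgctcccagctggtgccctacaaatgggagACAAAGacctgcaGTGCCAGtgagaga
Cnp: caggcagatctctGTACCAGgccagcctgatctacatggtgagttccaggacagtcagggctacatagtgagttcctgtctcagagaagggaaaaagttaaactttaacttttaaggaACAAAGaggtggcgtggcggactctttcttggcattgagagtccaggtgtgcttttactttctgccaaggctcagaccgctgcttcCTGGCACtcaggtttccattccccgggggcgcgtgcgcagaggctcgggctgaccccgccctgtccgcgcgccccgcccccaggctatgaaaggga
Aspa: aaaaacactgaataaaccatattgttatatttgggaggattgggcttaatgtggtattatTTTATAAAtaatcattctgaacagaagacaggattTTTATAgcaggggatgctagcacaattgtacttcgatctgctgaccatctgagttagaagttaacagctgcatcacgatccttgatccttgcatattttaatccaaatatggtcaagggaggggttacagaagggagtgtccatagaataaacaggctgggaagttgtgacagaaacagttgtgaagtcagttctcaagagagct
Mobp carried 7 copies of the SOX core, all on the strand opposite to the gene (CTTTGT as printed), from 190 to 55 bases before the start, which lies inside the annotated span of the gene. The SOX core stood in 5 of the 9 windows, those of Mbp, Mobp, Mog, Opalin and Cnp, and in 18.2% of 21770 promoters of the same length. The Myrf core stood in the windows of Mog, Opalin and Cnp, 3 of 9, and in 6.96% of all promoters. TATAAA stood in the Aspa window alone among the 9, at positions -190, -188 and -155 from the start, and in 13.2% of all promoters. The other SOX core searched, ACAATG, stood in the window of Mbp alone and in 10.8% of all promoters. No match overlapped a match of another motif in the printed windows. These are matches of letters, and no binding was measured in these samples.

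In oligodendrocyte-like nuclei the 9 genes together made up 8964 to 13438 CPM, with a mean of 11110 CPM over the 8 pools. Mbp and Mobp supplied most of it, 41.7% and 29.6% of the UMIs of the 9 genes. Mag followed with 9.15%, Aspa with 5.36%, Mog with 4.17%, Mal with 3.56%, Cldn11 with 2.99%, Opalin with 2.74% and Cnp with 0.717%. Levels of different genes were compared per kilobase of the gene's span, since nuclear RNA holds introns. On that scale Mobp was highest with a mean of 86.5 CPM per kb (59.6 to 123.9 over pools), then Mag with 64.2 (50.0 to 72.5) and Mbp with 42.2 (35.7 to 48.9). The ranges of Mobp and Mag overlapped, and those of Mag and Mbp did not. The Mbp span of 110.6 kb also holds promoters of the Golli transcripts, long forms of the gene. The forms were not separated, so the place of Mbp on this scale depends on the use of the whole span. Mog, with 35.0 CPM per kb of span (26.1 to 43.5), overlapped Mbp. Cldn11 with 22.3, Aspa with 19.6, Mal with 16.6 and Opalin with 13.5 CPM per kb of span followed, each with a range overlapping that of its neighbour in this order. Cnp was lowest at 4.83 CPM per kb of span (3.42 to 7.16), below the lowest pool of each of the other 8 genes. Per kilobase of exon, Mbp ranked first and Mobp second, and Cnp stayed last.

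Mbp was the steadiest of the abundant members. Its level in oligodendrocyte-like nuclei was 4672, 4513, 4458, 3944, 4721, 4951, 5400 and 4634 CPM (mean 4662 ± 416, SD, n = 8 pools). The lowest pool was Stress-PLX5622 and the highest Stress-IL-1R1+/+, and control and RSD pools overlapped. Mobp varied more, at 3544, 2237, 3453, 2677, 2833, 2645, 4647 and 3929 CPM (mean 3246 ± 796, SD, n = 8 pools). It was low in both PLX5622 pools and both control pools of the genotype experiment, and high in both RSD pools of the genotype experiment. Mag stood at 1021, 882.9, 1136, 800.6, 1008, 1090, 1129 and 1161 CPM, lowest in the PLX5622 pools. Mog stood at 486.1, 392.4, 393.3, 334.7, 502.0, 558.3, 492.7 and 437.2 CPM, with its lowest value in Stress-PLX5622.

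**Figure D1:**
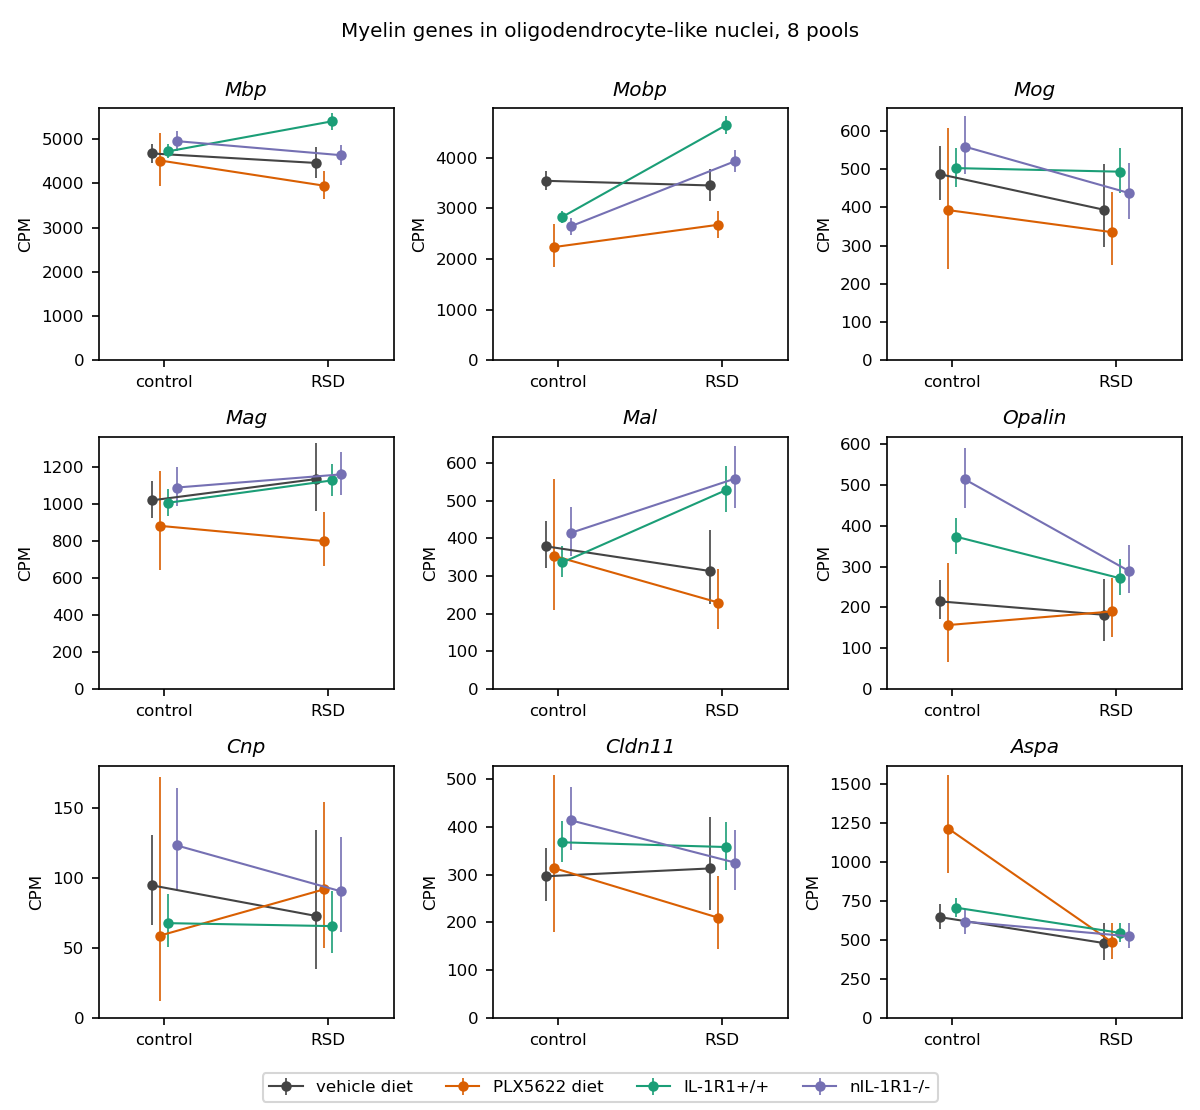
Level of each myelin gene in oligodendrocyte-like nuclei, in CPM on a linear axis from 0, with a colour and a line for each control-RSD pair, a point for each pool and a vertical bar for its 95% exact Poisson interval (counting error only). Aspa is the gene whose RSD pools (481 to 546 CPM) all lie below its control pools (619 to 1216 CPM), and for the other 8 genes the groups overlap.

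RSD was compared with control over the 4 pairs to ask whether defeat moved the myelin genes of oligodendrocytes. None of the 9 passed the threshold (edgeR quasi-likelihood test, Benjamini-Hochberg adjusted p under 0.05 over 5083 genes), and none did with DESeq2. In that comparison 5 genes were called, 0.0984% of those tested. At an unadjusted p under 0.05 there were 3 members, Aspa, Mobp and Opalin, beside 6.67% of all genes tested. The median log2 fold change of the 9 was -0.17, with 3 positive and 6 negative, against 0.01 over all genes tested. With a gate on marker UMIs in place of the cluster, the median was 0.08, with 6 positive and 3 negative. The gate held 3445 nuclei, of which 1984 were oligodendrocyte-like and 1165 came from the unnamed cluster of neuronal and oligodendrocyte genes. The direction of the median thus turned with the set of nuclei taken, and the part of the mixed nuclei was not tested.

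Aspa gave the member with the smallest p. Its level was 647.3, 1216, 480.8, 485.6, 707.7, 618.6, 545.9 and 524.6 CPM. It was lower with RSD in 4 of 4 pairs, and it was the only member whose RSD and control pools did not overlap, which held for 3.27% of all genes tested. The log2 fold change was -0.53 ± 0.16 (SE, edgeR adjusted p = 0.41). The Control-PLX5622 pool set much of this size: without it the change was -0.34, and without its RSD partner -0.35. Within the diet experiment it was -0.85 (edgeR adjusted p = 0.063) and within the genotype experiment -0.31 (adjusted p = 0.76). The high value of Control-PLX5622 came from 62 UMIs in 114 nuclei (1216 CPM, 95% exact Poisson interval 933 to 1559, for counting error only). The level was 844 to 1603 CPM in its 4 sublibraries, against 258 to 893 CPM in the sublibraries of the other pools. With every nucleus thinned to 250 UMIs, Aspa was seen in 29.7% of 101 Control-PLX5622 nuclei, against 12.2 to 21.05% in the other control pools. Thinned to 500 UMIs, it was seen in 7 of 35 (95% interval 8.44 to 36.9%), against 23.3 to 31.4% in the others. That limit left out 79 shallower nuclei of Control-PLX5622, and the part of shallow nuclei in its high value was not tested.

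Mobp moved the other way, with a log2 fold change of 0.39 ± 0.13 (SE, edgeR adjusted p = 0.53). Its pools overlapped. The difference lay in the genotype experiment, where RSD pools had 4647 and 3929 CPM and controls 2833 and 2645 CPM. Fitted alone, that experiment gave 0.64 ± 0.16 (edgeR adjusted p = 0.013), while the diet experiment alone gave 0.07. In the fit of the genotype pools 56 of 5904 genes were called, and 8.3% were at an unadjusted p under 0.05. That fit left fewer residual degrees of freedom than the fit of all pools. The difference between the experiments was not tested. Opalin, at 214.9, 157.0, 182.1, 190.3, 373.0, 513.7, 271.2 and 289.5 CPM, had a change of -0.46 ± 0.18 (SE, edgeR adjusted p = 0.56). It too rested on the genotype experiment, with -0.64 there (adjusted p = 0.14) and -0.09 in the diet experiment. Every genotype pool had more Opalin than every diet pool, and the same held for Cldn11 (296.8, 313.9, 313.2, 210.0, 367.9, 414.1, 358.0 and 325.6 CPM). Such separation of the experiments occurred for 6.83% of genes tested, and the source of the mice cannot be told apart from the experiment in it.

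Of the other members, Mog had a log2 fold change of -0.21 ± 0.15 (SE) and was lower with RSD in 4 of 4 pairs with overlapping pools. Mbp had -0.04 ± 0.11 (SE). Mag had 0.09, Cldn11 -0.17 and Cnp -0.19. Mal, at 378.7, 353.2, 313.2, 229.7, 336.0, 414.1, 528.2 and 557.8 CPM, had 0.22, with lower values under RSD in both diet pairs and higher ones in both genotype pairs, a difference that was not tested. Cnp was read from few molecules, at 58.86 to 123.2 CPM.

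**Figure D2:**
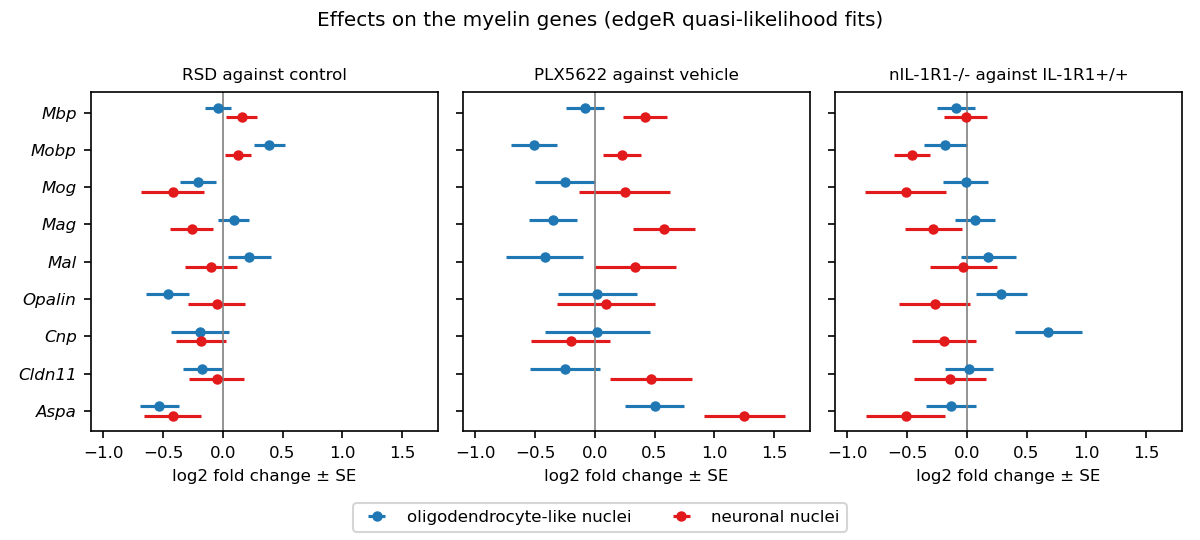
Log2 fold change of each myelin gene for RSD, PLX5622 and genotype, in oligodendrocyte-like nuclei (blue) and neuronal nuclei (red). The bar is a standard error derived from the F statistic of the edgeR test. No gene passed an adjusted p of 0.05 in either class, and in oligodendrocyte-like nuclei the members at an unadjusted p under 0.05 were Aspa, Mobp and Opalin for RSD, Mobp for PLX5622 and Cnp for genotype.

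The genes that the RSD test called in these nuclei had log2 fold changes of 1.24 to 1.79, larger in size than any member's (-0.53 for Aspa). Whether the test could call changes of the members' size was not tested. The 5 that rose were Zbtb16, Sgk3, Zfand4, Ddc and Fkbp5, and none fell. Zbtb16, a zinc-finger transcription factor induced by glucocorticoids, was at 1205, 746, 2040, 1706, 290, 307, 751 and 968 CPM. It was higher with RSD in 4 of 4 pairs, with a log2 fold change of 1.24 ± 0.15 (SE, edgeR adjusted p = 0.00028). Sgk3, a kinase of the glucocorticoid-regulated kinase family, rose by 1.38 on the log2 scale (SE 0.21, edgeR adjusted p = 0.0037). Fkbp5, the co-chaperone of the glucocorticoid receptor, rose by 1.56 (SE 0.3, edgeR adjusted p = 0.046), with 284 and 210 CPM under RSD against 235 and 118 CPM in the diet pools, where its change alone was 0.40, and 214 and 235 CPM against 52.4 and 23.6 CPM in the genotype pools. Zfand4 rose by 1.79 and Ddc, the aromatic amino acid decarboxylase, by 1.36 (edgeR adjusted p = 0.0081 and 0.028). Some control levels were near the floor. Sgk3, Zfand4 and Ddc were each at 39.2 CPM in Control-PLX5622, the level of 2 UMIs there, and Zfand4 was at 10.5 CPM in Con-nIL-1R1-/-. Without Con-IL-1R1+/+ or without Stress-IL-1R1+/+ the count of called genes fell to 0, without Control-PLX5622 it was 2, and without Stress-PLX5622 it was 3.

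The 6 other gene lists set beside the members were counted in the same fit. Of 14 glucocorticoid-responsive genes, 9 were tested, 3 rose (Zbtb16, Sgk3 and Fkbp5) and none fell, beside 0.0984% of all genes called, and the median log2 fold change was 0.68, against 0.01 over all genes. This list was chosen with earlier results of these data known, so its count is not independent evidence. Of 20 other myelin sheath genes, 13 were tested and none passed, with a median of 0.06. Among 12 tested genes of myelin lipid synthesis none passed, with a median of -0.10, and Elovl7, a fatty acid elongase, had -0.66 (edgeR adjusted p = 0.33). None passed among 9 tested regulators (median 0.16, Myrf 0.33), 8 genes of precursors and committed cells (median 0.01, Enpp6 -0.48) and 12 genes of mature subtypes, a list that also holds Opalin (median -0.03, Grm7 -0.50).

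PLX5622 was compared with vehicle chow in 2 pools against 2 to ask whether the diet altered the myelin genes. No gene was called, members included (edgeR, 0.0% of 5083 genes; DESeq2 also called 0). At an unadjusted p under 0.05 stood 1 member beside 4.49% of genes tested. This was Mobp, at 2237 and 2677 CPM with PLX5622 and 3544 and 3453 CPM with vehicle, a log2 fold change of -0.51 ± 0.19 (SE, edgeR adjusted p = 1.0). Mag had -0.35, Mal -0.42, Mog -0.25 and Cldn11 -0.25, while Mbp had -0.08 and Cnp and Opalin 0.02 each. Aspa had 0.50 ± 0.25 (SE), which became -0.03 without Control-PLX5622. The median over the 9 was -0.25, against -0.02 over all genes tested, and it was -0.01 with the gate.

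In the other lists, Enpp6, a marker of newly forming oligodendrocytes, had a log2 fold change of 1.28 for PLX5622 (edgeR adjusted p = 0.75) and Per1, a clock gene that responds to glucocorticoids, -1.17 (adjusted p = 1.0). Qdpr had 1.13 (adjusted p = 1.0). Both rest on few UMIs, with Per1 at 19.6 CPM in Control-PLX5622, the level of 1 UMI there, and Qdpr at 21.9 CPM in Stress-Vehicle. Insig1, a brake on sterol synthesis, had 0 UMIs in both PLX5622 pools and Sox8, a SOX factor of the lineage, 0 UMIs in Control-PLX5622, so no fold is given for them (adjusted p = 1.0 each). No tested gene of these lists passed. Control-PLX5622 was the shallowest pool, with a median of 404.5 UMIs in its oligodendrocyte-like nuclei, and the part of depth in these values was not tested.

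Genotype was compared between the nIL-1R1-/- and IL-1R1+/+ pools, where the deletion lies in neurons. No gene was called (edgeR, 0.0% of 5083; DESeq2 also called 0), and 1 member was at an unadjusted p under 0.05, beside 2.46% of genes tested. This was Cnp, at 123.2 and 90.46 CPM with the deletion and 67.7 and 65.58 CPM without, a log2 fold change of 0.68 ± 0.28 (SE, edgeR adjusted p = 1.0). Opalin had 0.29, Mal 0.18, Mag 0.07, Cldn11 0.02, Mog -0.01, Mbp -0.09, Aspa -0.13 and Mobp -0.18. The median over the 9 was 0.02, against 0.00 over all genes tested, and it was -0.26 with the gate, with 1 positive and 8 negative. In the other lists the smallest p belonged to Gjc3 (-0.33), Myrf (0.41), Cers2 (0.95), Enpp6 (-0.62) and Sgk1 (0.35), each with an edgeR adjusted p of 1.0.

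Whether the RSD effect of the PLX5622 pair or of the nIL-1R1-/- pair differed from that of the other pairs was tested by an added term. In each fit the other pairs, from both experiments, shared a common RSD effect. The term is thus not a comparison with the vehicle or IL-1R1+/+ pair alone, and it does not isolate diet or genotype. For RSD by PLX5622 no gene was called (edgeR, 0.0% of 5083 genes), and 1 member, Aspa, was at an unadjusted p under 0.05 beside 5.94% of all genes. Its term was -1.01 ± 0.34 (SE, edgeR adjusted p = 0.80). For RSD by nIL-1R1-/- 2 genes were called, Cmss1 and Hs6st3 (0.0393%), and no member reached an unadjusted p under 0.05, beside 7.32% of genes tested. The member with the smallest p there was Opalin, at -0.50 ± 0.34 (SE, edgeR adjusted p = 0.86). With 2 residual degrees of freedom, these terms had wide errors.

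The share of oligodendrocyte-like nuclei was 3.70% on average in RSD pools and 3.46% in control pools. The difference was 0.247 percentage points (SD of the pair differences 1.71, n = 4 pairs), higher with RSD in 2 of 4 pairs, with p = 0.75 in an exact two-sided sign-flip permutation test, which cannot pass 0.05 with 4 pairs. By pair it was -1.59 with vehicle, 1.69 with PLX5622, -0.83 with IL-1R1+/+ and 1.72 with nIL-1R1-/-.

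Across cell classes the 9 genes marked the oligodendrocyte lineage to unequal degrees. These comparisons between clusters are descriptions with no test. In a cluster of 158 nuclei led by Bcas1 and Enpp6, genes of oligodendrocytes that have just begun to differentiate, Mbp had 2021 CPM over all pools, Mag 267 CPM and Mobp 231 CPM. Opalin had 4.38 CPM there, Mal and Aspa 8.76 CPM each and Mog 14.6 CPM. These levels rest on few UMIs. Opalin was seen in 1.27% of the nuclei of this cluster, Mal in 2.53%, Aspa in 1.90% and Mog in 5.70%. Thinned to 500 UMIs, Cldn11 was seen in 8.33% and Cnp in 3.47% of them, against 15.3% and 3.64% of oligodendrocyte-like nuclei. In precursor-like nuclei Mbp had 174 CPM and in astrocyte-like nuclei 289 CPM, where Mobp had 115 CPM.

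A few members had another class of their own. Mal was at 128.7 CPM in the 366 endothelial-like nuclei and supplied 40.4% of the myelin-gene UMIs there, against 3.56% in oligodendrocyte-like nuclei. It was detected in every pool of that class, from 52.9 to 233.5 CPM. In the 137 nuclei of the vascular leptomeningeal-like class, Cldn11 was at 91.8 CPM (32 UMIs) and Aspa at 88.9 CPM (31 UMIs), while Cnp had 0 UMIs.

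**Figure D3:**
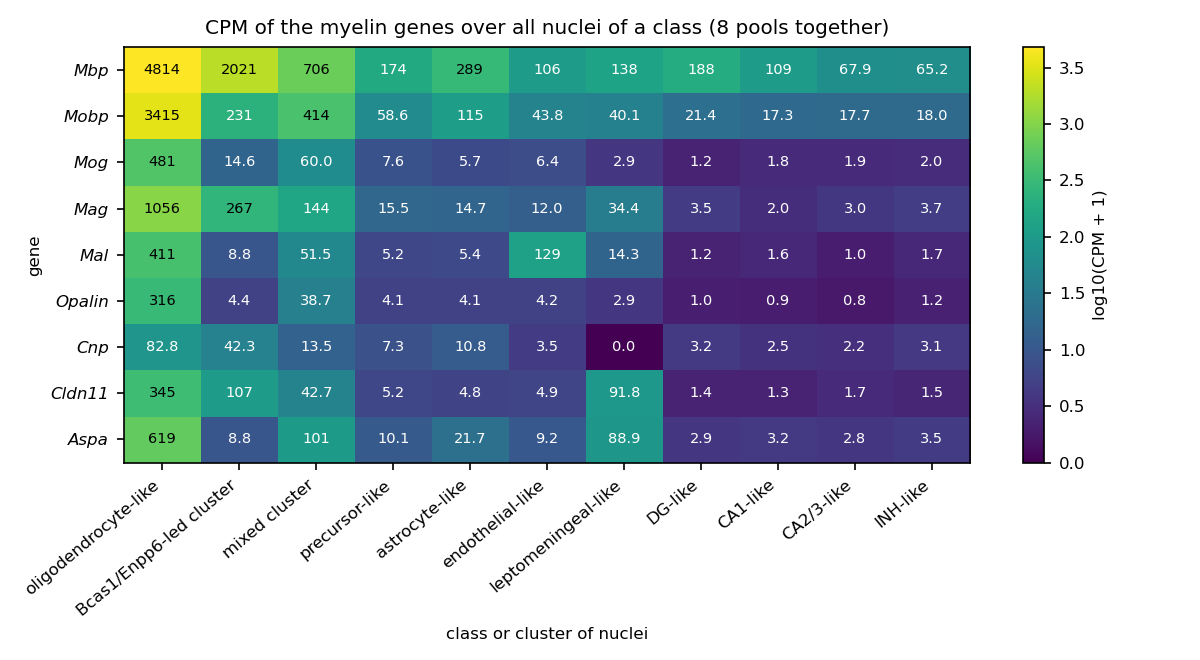
Heat map of the level of each myelin gene (rows) in each class or cluster of nuclei (columns), summed over the 8 pools, with the CPM written in each cell and colour on a log10(CPM + 1) scale. All 9 genes are highest in oligodendrocyte-like nuclei, Mbp is the member above 100 CPM in precursor-like nuclei (174 CPM), and Mal stands out in endothelial-like nuclei (128.7 CPM).

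Likeness was measured as Pearson's r of log2(CPM + 1) over 12 cell classes between each of 15493 genes and the mean of the members, as a description, since the classes share libraries and depth. Unnamed clusters, among them the one led by Bcas1 and Enpp6 and the mixed cluster, were not among the 12. Among the genes most like the members were Gm13293 (r = 0.972), Tulp4 (0.968), Enpp6 (0.968) and Nkx6-2 (0.966). The r of Enpp6 thus leaves out a cluster of which it is a leading gene. Of the members, Mobp was most like the other 8 (0.971), then Mag (0.962) and Opalin (0.947). Cnp was least like them (0.600), after Mal (0.798) and Aspa (0.860).

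Myelin RNA was also read in neuronal nuclei, where it can come from free RNA or doublets. As a median over pools, the 9 genes together stood at 1.54% of their oligodendrocyte CPM (1.31 to 2.53%). The highest values were those of the PLX5622 pools, 2.53% in controls and 2.50% with RSD, which were also the pools with the lowest median UMIs in oligodendrocyte-like nuclei, and the part of depth was not tested. The members differed in this percent. Mbp was at a median of 2.79% (2.22 to 4.14%) and Cnp at 3.80% (2.25 to 4.76%). The other 7 were lower, with medians from 0.465% for Mag to 0.882% for Aspa. The percent of Cnp rests on few UMIs in oligodendrocyte-like nuclei, at 58.9 to 123 CPM. Dnajc7 overlaps Cnp on the other strand over 9313 bases, and its part in the Cnp counts was not tested. Mbp made up 73.3% of myelin-gene UMIs in neuronal nuclei, against 41.7% in oligodendrocyte-like nuclei and 44.9% in the mixed cluster.

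Among the neuronal classes with a subtype name, Mbp was highest in nuclei of the dentate gyrus-like class, which holds granule neurons. It was 186.4, 280.7, 213.0, 231.4, 165.1, 166.0, 206.9 and 194.5 CPM. In CA1-like nuclei it was 126.1, 142.1, 131.4, 130.9, 91.1, 99.7, 121.7 and 94.9 CPM, and in inhibitory-like nuclei 57.9 to 115.7 CPM. Every pool had more in dentate nuclei than any pool had in those classes or in CA2/3-like nuclei (58.7 to 145.9 CPM). The 21451 neuronal nuclei without a subtype name were not set beside these classes. They include a cluster of 1111 nuclei with Prox1 and Glis3 among its leading genes. The dentate class joined clusters of 5207 and 5085 nuclei with medians of 3141 and 792 UMIs, and the part of depth was not tested. The 31069 neuronal nuclei with no UMI of the 12 oligodendrocyte markers held 94.0 to 168.3 CPM of Mbp, and dentate nuclei without such UMIs 156.2 to 262.6 CPM. Lacking a marker UMI was the common case, in 31069 of 46276 neuronal nuclei. It therefore cannot tell nuclei without free oligodendrocyte RNA from nuclei with it. In the neuronal nuclei without marker UMIs Mbp was 77.9% of myelin-gene UMIs. The Mbp span holds promoters of the Golli transcripts, long forms known in neurons, and the files count the gene as a whole, so the forms were not separated.

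**Figure D4:**
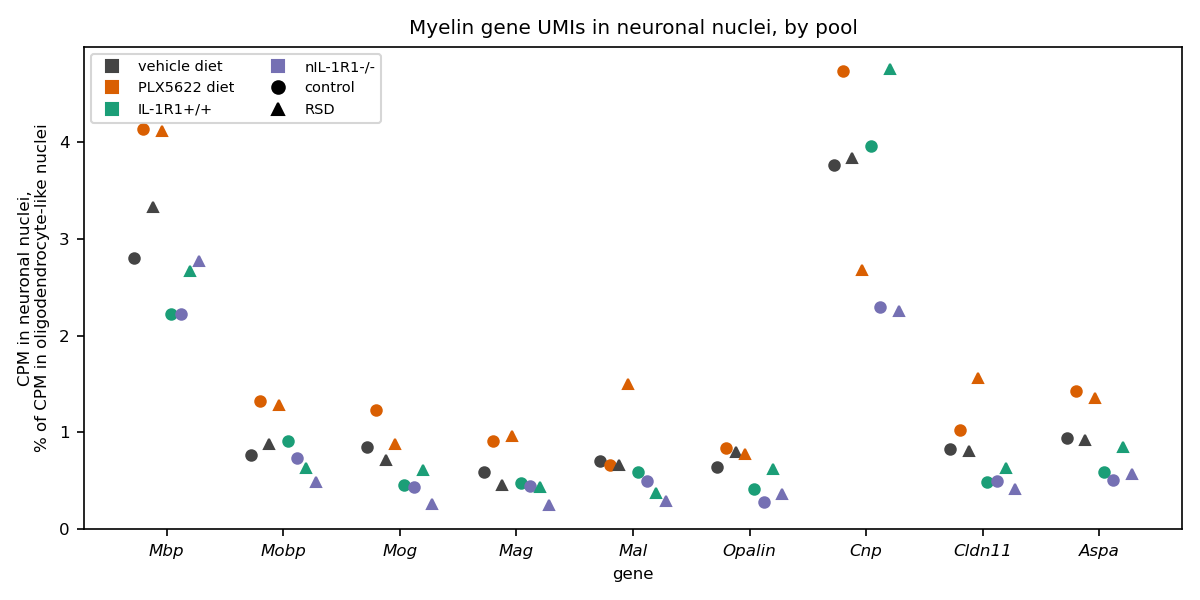
Level of each myelin gene in neuronal nuclei as a percent of its level in oligodendrocyte-like nuclei of the same pool, with a point for each pool, colour for diet or genotype, circles for control and triangles for RSD. Mbp and Cnp sit at medians of 2.79% and 3.80%, above the other 7 genes, and the Cnp values rest on few UMIs.

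Most neuronal nuclei held no myelin-gene UMI (67.4%) and 20.01% held 1. A small group, 2.00% of nuclei, with 5 or more held 30.4% of these UMIs. In oligodendrocyte-like nuclei 0.945% held none, with a median of 10. With every nucleus thinned to 500 UMIs, 98.7% of 1567 oligodendrocyte-like nuclei had a UMI of a member (unthinned 99.1%, 443 shallower nuclei left out), against 8.54% of 39733 neuronal nuclei (unthinned 32.6%, 6543 left out). Mbp was seen in 87.0% and 6.62%, Mobp in 76.1% and 1.18%, and Opalin in 13.3% and 0.0529% of these nuclei. The share in neuronal nuclei is the level that free RNA and doublets, together with any transcription in neurons, leave in this assay. In astrocyte-like nuclei it was 17.6%.

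RSD, PLX5622 and genotype were compared in neuronal nuclei in the same way over 17026 genes. No member was called in any of these comparisons with edgeR, against 0.0117% of genes for RSD and 0.0% for PLX5622 and genotype. DESeq2 called no member either, beside 137 genes for RSD, 5 for PLX5622 and 11 for genotype. It gave an adjusted p to 8774 of 17026 genes for RSD and 13725 for PLX5622, and a gene without one could not be called. At an unadjusted p under 0.05 stood 0 members for RSD (13.4% of genes), 3 for PLX5622 (5.71%) and 1 for genotype (2.67%). For RSD, Mbp, at 131.1, 186.8, 148.3, 162.2, 104.8, 110.4, 144.1 and 128.6 CPM, had a log2 fold change of 0.16 ± 0.13 (SE), with overlapping pools. Mobp had 0.13 and Mog and Aspa -0.42 each. In none of the 9 were the RSD and control pools apart, which 3.89% of genes tested showed.

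The added terms were also tested in neuronal nuclei. For RSD by PLX5622 no member was called beside 0.0176% of genes, and Mbp and Aspa were at an unadjusted p under 0.05 beside 10.0% of genes. Aspa had -1.40 ± 0.38 (SE, edgeR adjusted p = 0.32) and Mbp -0.61 ± 0.22 (SE, edgeR adjusted p = 0.39). For RSD by nIL-1R1-/- no gene was called (edgeR, 0.0% of genes), and 0 members were at an unadjusted p under 0.05 beside 4.84% of genes. Mag had -0.67 ± 0.38 (SE, edgeR adjusted p = 0.96).

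For PLX5622, Aspa had the largest change among the members in neuronal nuclei. It was 6.07, 17.3, 4.42, 6.56, 4.21, 3.13, 4.61 and 2.98 CPM, highest in Control-PLX5622 as it was in oligodendrocyte-like nuclei. It was 2.38-fold higher with PLX5622 (SE of the log2 fold change 0.34, edgeR adjusted p = 0.65), and the log2 fold change was 0.38 without Control-PLX5622. Without Stress-PLX5622 it was 1.77 and passed the test (edgeR adjusted p = 0.036), resting on the remaining PLX5622 pool. The mixed cluster held Aspa at 435.2 CPM in Control-PLX5622 and 70.9 to 108.3 CPM elsewhere. Oligodendrocyte markers in neuronal nuclei summed to 328.3 CPM in Control-PLX5622, the highest of a range from 160 CPM. Mbp had 0.42 ± 0.18 (SE, edgeR adjusted p = 0.87) and Mag 0.58 ± 0.26 (SE, edgeR adjusted p = 0.87). The median of the 9 for PLX5622 was 0.34, with 8 positive and 1 negative. Over all genes tested it was 0.02, with 52.5% positive.

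For genotype, Mobp in neuronal nuclei was 19.43 and 19.16 CPM with the deletion and 25.85 and 29.34 CPM without, a log2 fold change of -0.46 ± 0.15 (SE, edgeR adjusted p = 1.0). It was -0.21 in nuclei without oligodendrocyte marker UMIs, and -0.77 with the mixed cluster counted in. The other 8 members ranged from -0.51 for Mog and Aspa to -0.01 for Mbp, and the median of the 9 was -0.27, with 9 negative. Over all genes tested the median was 0.0, with 50.6% positive. With the mixed cluster counted in, 7 of the 9 were at an unadjusted p under 0.05, beside 2.99% of genes, the median was -0.71 and 9 were negative, but none was called (edgeR). That cluster held 207 and 167 nuclei in the control and RSD pools of IL-1R1+/+ and 145 and 72 in those of nIL-1R1-/-. The part of these numbers of nuclei in the members' change was not tested. In nuclei without oligodendrocyte marker UMIs 0 members were at an unadjusted p under 0.05, beside 2.41% of genes, with a median of -0.11. Without Stress-IL-1R1+/+ the median was 0.06.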

How the data were processed

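Nuclei of 8 pools, each of 3 mice, were barcoded together and sequenced in 4 sublibraries. The authors deposited raw UMI counts per gene and nucleus, aligned to mm39, and the submitters' processing notes name Seurat 4.1.1. The version of the counting pipeline, the annotation release and the use of strand are not given in the sources used here. Every nucleus was assigned to its pool through the deposited nuclei tables, and each barcode was unique. No columns of other samples were left out (0).

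Nuclei with over 20% mitochondrial counts were left out. Counts were clustered (2000 variable genes without the 9 myelin genes, 30 principal components, 15 neighbours, Leiden resolution 1.0, leidenalg 0.10.2, scikit-learn 1.9.0) into 37 clusters, which were named from fixed marker lists with at least 3 detected markers. After the clusters were seen, a neuronal subtype name was also made to need 1 of its own markers among the 10 leading genes. These rebuilt names can differ from those of the study. Doublets were kept, and leaving out the 6% of nuclei with the highest Scrublet scores was an alternative.

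UMIs were summed per pool and class. Sums were tested with edgeR 4.0.16 in R 4.3.3 (TMM, filterByExpr, quasi-likelihood, two-sided) with the control-RSD pair and RSD as terms, leaving 3 residual degrees of freedom, and with Benjamini-Hochberg adjustment over all genes tested at 0.05. The SE given with an edgeR change was derived from the test, as the absolute log2 fold change divided by the square root of the F statistic. The scripts were tested on simulated data. The pairs share diet or genotype and experiment by design. Correlations between the deviations of pools of the same pair from the RSD and control means were 0.06, 0.06, 0.11 and -0.01 in oligodendrocyte-like and 0.25, 0.17, 0.25 and 0.23 in neuronal nuclei. Exact tests used scipy 1.17.1. Levels are UMIs scaled to a common total of the class in a pool (CPM). Depth was 217534776 UMIs, with 598 to 5012 per nucleus (median of each pool), and intervals cover counting error only.

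The members and gene lists were chosen with earlier results of these data known. All 9 members are named. From the other lists, called genes are named, or else the gene with the smallest p, and from all genes, at most 3 called in each direction with the smallest p. Ddc is outside this rule and was named after its values were seen. A gene that this rule names is not reported here. Alternatives were DESeq2 1.42.0, no filter on low counts, no pair term, each experiment alone, each pool left out in turn, other definitions of the classes, no limit on mitochondrial counts and thinning to 250 UMIs. Counting the mixed cluster among the neurons was chosen after seeing the data.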

Additional observations from a re-analysis of the deposited data

Results flagged for a closer look

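Among 42 groups of 4 pools tested for a pool that stood far from the other 3, 4 were flagged. Chance flags about 1 in 20 groups of like pools. The 4 pools of a group differed in diet or genotype and in depth, and the part of these in the flags was not tested. Aspa in oligodendrocyte-like nuclei was 1216 CPM in Control-PLX5622, with 619 to 708 CPM in the other control pools. Mag in oligodendrocyte-like nuclei was 801 CPM in Stress-PLX5622, with 1129 to 1161 CPM in the other RSD pools. In neuronal nuclei, Cnp was 3.57 CPM in Control-Vehicle, with 2.68 to 2.83 CPM in the other control pools, and Mog was 1.15 CPM in Stress-nIL-1R1-/-, with 2.80 to 3.02 CPM in the other RSD pools.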

How the results depend on the processing

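Over 54 effects of the members (9 genes, 3 comparisons, 2 classes), 731 of 816 alternative values kept direction and side of the threshold, 82 took the other direction without passing it, and 3 passed it: Mobp for RSD in the genotype pools alone, and Aspa for PLX5622 in neuronal nuclei without a filter and without Stress-PLX5622. The cause was not tested. Few UMIs limit the precision of Cnp and Opalin, of the members in neuronal nuclei and of Control-PLX5622.

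Counts of called genes moved with the setting. For RSD in oligodendrocyte-like nuclei (5), they were 17 without a filter, 9 in the diet pools, 56 in the genotype pools (1 member), 10 with the marker gate (at least 2 UMIs of the 12 markers) and 0 with no replicate block, and 0 to 7 with a pool left out (0 without Con-IL-1R1+/+ or Stress-IL-1R1+/+, 2 without Control-PLX5622, 3 without Stress-PLX5622). The no-block fit ignores the pairing of control and RSD pools. For PLX5622 (0) they were 0 to 1 with a pool left out. For genotype (0) they were 6 without a filter, 7 in the genotype pools, 1 with the gate and 0 to 7 with a pool left out. In neuronal nuclei, RSD (2) gave 137 with DESeq2, 471 without a filter, 734 in the diet pools, 0 in the genotype pools, 0 with no replicate block and 0 to 127 with a pool left out (127 without Con-nIL-1R1-/-). PLX5622 (0) gave 5 with DESeq2, 110 without a filter (1 member) and 0 to 45 with a pool left out (45 without Stress-PLX5622, members 0 to 1). Genotype (0) gave 11 with DESeq2, 131 without a filter and 0 to 44 with a pool left out. Of 16 alternatives each, Zbtb16 stayed called in 12, Sgk3 in 13, Zfand4 in 11, Fkbp5 in 6 and Ddc in 5, with none in the other direction.

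With the mixed cluster counted in, the level in neuronal nuclei was 2.22% of that in oligodendrocyte-like nuclei for all 9 genes and 1.48% for those other than Mbp. Thinned to 250 UMIs, 91.6% of oligodendrocyte-like and 4.67% of neuronal nuclei had a member UMI. The RSD difference in oligodendrocyte share was -0.244 to 0.858 points with a pair left out.

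Log2 fold changes that took the other direction in oligodendrocyte-like nuclei were as follows. With the gate, which also took in nuclei of the mixed cluster, the members' median for RSD was 0.08 (6 positive, 3 negative) and for genotype -0.26. By gene, RSD gave Mbp 0.13, Cnp 0.04 and Cldn11 0.08, PLX5622 gave Mbp 0.26, and genotype gave Mag -0.14, Mal -0.06, Opalin -0.06 and Cldn11 -0.26. Single experiments gave Mbp 0.05 (genotype pools) and Mal -0.41 (diet pools) for RSD and Opalin -0.09 for PLX5622. For PLX5622, Opalin was -0.02 with DESeq2, -0.1 without a filter and -0.04 with members allowed in clustering, and Cnp -0.09 and -0.12 in the last 2 of these. For genotype, Cldn11 was -0.04 without a filter, -0.05 with members in clustering and -0.04 without doublets.

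In neuronal nuclei, single experiments gave Mbp -0.06 and Opalin 0.07 (diet pools) and Aspa 0.07 (genotype pools) for RSD, and Mbp 0.01 for genotype. Members allowed in clustering gave Mag 0.08 and Mal 0.26 for RSD and Mbp 0.04 for genotype. Without doublets, RSD gave Mal 0.03 and Cldn11 0.03, and genotype Mbp 0.0 and Cldn11 0.04. Without oligodendrocyte marker UMIs, RSD gave Mag 0.21, Mal 0.13 and Aspa 0.33, PLX5622 gave Mog -0.47, and genotype Mbp 0.03 and Cldn11 0.72. With the mixed cluster, RSD gave Mag 0.08, Mal 0.24 and Cldn11 0.04, and PLX5622 Opalin -0.06.

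With a pool left out, ranges that crossed 0 in oligodendrocyte-like nuclei were Mbp -0.12 to 0.01 and Mal -0.03 to 0.37 for RSD. For PLX5622 they were Mbp -0.21 to 0.03, Mal -0.82 to 0.17, Opalin -0.51 to 0.28, Cnp -0.6 to 0.26, Cldn11 -0.45 to 0.05 and Aspa -0.03 to 0.99. For genotype they were Mbp -0.24 to 0.07, Mobp -0.39 to 0.06, Mog -0.16 to 0.13, Mal -0.14 to 0.54, Cldn11 -0.1 to 0.13 and Aspa -0.34 to 0.09. In neuronal nuclei they were Mal -0.21 to 0.0, Opalin -0.17 to 0.13 and Cldn11 -0.24 to 0.15 for RSD, Mog -0.04 to 0.44 and Opalin -0.01 to 0.15 for PLX5622, and Mbp -0.24 to 0.25, Mog -1.21 to 0.08, Mal -0.25 to 0.11, Cnp -0.55 to 0.12 and Cldn11 -0.59 to 0.16 for genotype.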
